A study of Mus musculus with 12 samples.

Results

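The genes described here are 8 markers of reserve and revival stem cells of the intestine, namely *Hopx*, *Bmi1*, *Lrig1*, *Tert*, *Mex3a*, *Clu*, *Ly6a* and *Anxa1*. They were chosen by gene symbol from a written list, and all 8 were found among the 47729 genes of the count table. The rule itself uses no measured value, but the list was chosen with earlier results of these data known. RNA was measured in bulk in Lgr5-EGFP-hi intestinal stem cells (ISCs), sorted from the small intestine of mice of 8 to 10 weeks with the *Lgr5-EGFP-IRES-creERT2* allele. There were 12 libraries in 4 groups of 3. Control mice (Ctrl) were compared with mice restrained for 3 h (stress), and mice given cyclodextrin alone by intraperitoneal injection (vehicle) were compared with mice given corticosterone in cyclodextrin at 5 mg/kg (CORT), each after an exposure of 1 day. In the study's restraint protocol, unrestrained controls went without food and water for the same time. Every mouse, controls included, carried the knock-in at the *Lgr5* locus, and the sort kept cells that were EpCAM+, CD24-, CD31-, CD45- and TER119- with bright EGFP. The stress libraries bear the numbers 1+2, 3 and 4+5+6, which read as pools of mice in the joined ones. Nothing further in the labels ties a library to an animal, so p-values measure the spread between these libraries.

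The crypt base holds rapidly dividing Lgr5+ ISCs, and a second set of cells, often called reserve or +4 stem cells, divides slowly and can refill the crypt when Lgr5+ cells are lost. *Hopx*, *Bmi1*, *Lrig1* and *Tert* were proposed as marks of such cells, and *Mex3a* marks a slowly dividing subset within the Lgr5+ cells. After injury, revival stem cells appear that make clusterin (*Clu*), and the regenerating epithelium switches on a fetal-like programme, driven by YAP, that includes *Ly6a* (Sca-1) and *Anxa1*. In a bulk sample, fewer cells that make a transcript and less transcript per cell cannot be told apart.

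The sequences upstream of the start site are shown for the 3 members whose levels fell in a treated group, *Mex3a* and *Lrig1* under CORT and *Hopx* under stress, and for *Bmi1*, whose level passed the test in no comparison. The sequences are those of RefSeq (GRCm38.p6), which had an entry for 6 of the 8 members, with 250 bases each, written 5′ to 3′ on the strand of the gene and ending at the last base before the start site. Capitals mark a match, on either strand, to TGTTCT (a core of the glucocorticoid receptor element), GGAATG (TEAD), CTTTGA (TCF/LEF) or CACGTG (an E-box). *Clu* and *Ly6a* had no entry.
Mex3a (chr3:88531696-88531945, + strand): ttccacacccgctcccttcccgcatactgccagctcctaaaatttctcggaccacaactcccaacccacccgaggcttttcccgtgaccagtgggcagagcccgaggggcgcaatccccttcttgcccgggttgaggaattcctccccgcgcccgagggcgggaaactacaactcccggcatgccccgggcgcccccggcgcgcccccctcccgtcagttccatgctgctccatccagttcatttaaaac
Lrig1 (chr6:94700146-94700395, - strand): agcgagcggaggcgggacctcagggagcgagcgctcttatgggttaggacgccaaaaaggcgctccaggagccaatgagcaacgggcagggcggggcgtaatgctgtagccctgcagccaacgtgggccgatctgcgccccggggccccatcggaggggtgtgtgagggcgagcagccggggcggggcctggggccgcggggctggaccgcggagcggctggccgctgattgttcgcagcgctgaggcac
Hopx (chr5:77115124-77115373, - strand, the first of 2 starts): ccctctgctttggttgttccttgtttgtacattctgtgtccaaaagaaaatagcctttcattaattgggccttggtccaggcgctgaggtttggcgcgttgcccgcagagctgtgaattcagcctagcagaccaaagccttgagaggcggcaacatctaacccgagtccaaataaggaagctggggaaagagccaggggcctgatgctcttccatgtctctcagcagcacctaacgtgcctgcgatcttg
Bmi1 (chr2:18676768-18677017, + strand): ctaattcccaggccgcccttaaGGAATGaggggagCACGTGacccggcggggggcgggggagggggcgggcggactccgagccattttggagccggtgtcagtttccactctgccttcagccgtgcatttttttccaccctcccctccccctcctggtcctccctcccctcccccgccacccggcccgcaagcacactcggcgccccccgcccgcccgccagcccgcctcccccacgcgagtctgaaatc
None of the 4 motifs was found in the *Mex3a* and *Lrig1* windows or in that of the first *Hopx* start. The window of the second *Hopx* start, not shown, held an E-box at -86, and that of *Anxa1* a TEAD match at -236. In the *Bmi1* window a TEAD match (GGAATG) began at -228 and an E-box at -215 from the start site. Of 32851 mouse promoters of the same length, 16.1% held TGTTCT, 12.6% GGAATG, 13.8% CTTTGA and 6.02% CACGTG. A match is a description of the letters, and the absence of one says nothing about binding elsewhere.

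Total counts were 15934907 to 17135770 in the Ctrl and stress libraries, 16465961 to 31280267 in vehicle and 29426183 to 69533214 in CORT. Levels are given as CPM, counts scaled to library size with edgeR's TMM factors. A count stands for 75 covered bases, so that a pair of 150-base reads makes up to 4 counts. A gene at 0 could still have had 3 read pairs (12 counts). That limit is 0.173 to 0.753 CPM depending on the library, taken on the total counts without those factors. Such limits cover counting error only. The ISC identity of the sort was checked on 6 ISC markers, whose summed level was 10680 to 13940 CPM, against at most 6.61 CPM for 6 blood cell markers and 3.24 CPM for 6 stromal and endothelial markers, of which *Cdh5* and *Col1a2* were at 0 in every library. Enterocyte markers moved with stress. Their summed level was 830, 322 and 1685 CPM in stress 1+2, stress 3 and stress 4+5+6, against 179 to 202 CPM in Ctrl, and 5 of 6 were called higher. Goblet cell markers summed to 486 to 1444 CPM in stress and 472 to 595 CPM in Ctrl, with 2 of 6 called higher, and Paneth cell markers to 169 to 263 CPM and 136 to 173 CPM, with 1 of 6 called higher. Of the ISC markers, 1 of 6 was called lower under stress. With CORT, 4 of 6 Paneth cell markers were called lower (104 to 116 CPM summed, against 186 to 211 CPM in vehicle), as were 3 of 6 ISC markers and 1 of 3 tuft cell markers tested. The 1 stromal and endothelial marker tested and 1 of 6 enterocyte markers were called higher with CORT. Between vehicle and Ctrl, 1 of 6 enterocyte and 1 of 6 Paneth cell markers were called higher. Of all genes, 1.89% were called under stress, 8.13% with CORT and 0.799% between vehicle and Ctrl.

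Per transcript length, *Hopx* and *Lrig1* were the most abundant members. *Hopx* had a mean of 132 FPKM over the 12 libraries, above 96.7% of the 14826 genes tested in any comparison, and *Lrig1* had 61.3 FPKM, above 92.1%. *Bmi1* followed with 9.97 FPKM and stood near the middle, above 57.0% of these genes. *Mex3a* (4.13 FPKM), *Tert* (2.67 FPKM) and *Clu* (1.92 FPKM) were lower. *Ly6a* had a mean of 4.12 FPKM but a median of 1.01 FPKM, since its libraries ran from 0.223 to 21.96 FPKM. *Anxa1* had 0.0302 FPKM. *Anxa1* in every library, and *Ly6a* in Ctrl and stress, were at or near the counting limit.

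**Figure D1:**
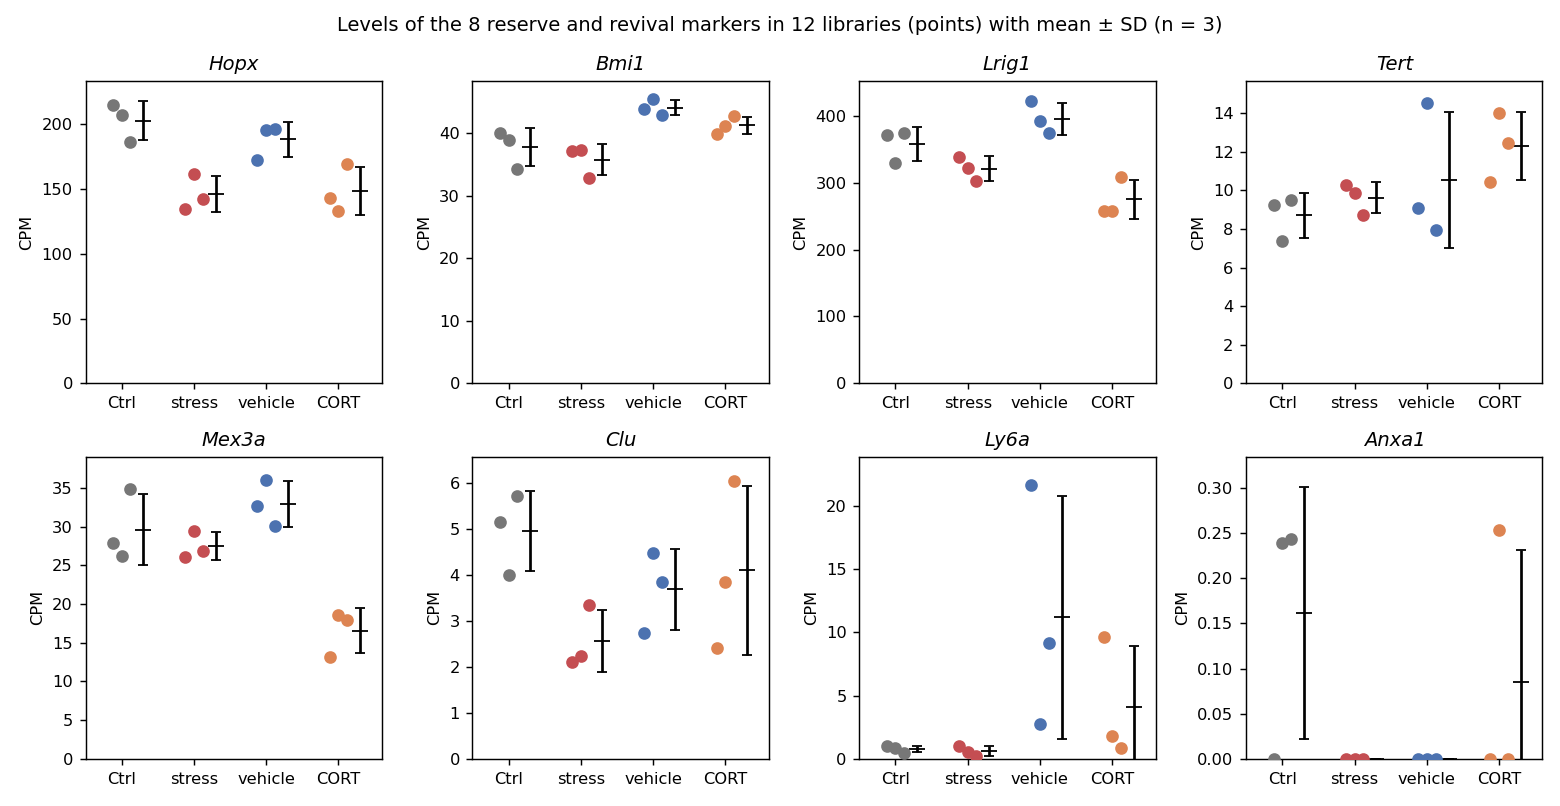
Level of each of the 8 markers (vertical axis, CPM from 0, a scale of its own per gene) in the 12 libraries, with 1 point per library and, to its right, the mean and SD of the 3 libraries of each group (bars end at 0 where they would pass below it). Stress lies below Ctrl without overlap for Hopx and Clu, CORT lies below vehicle without overlap for Hopx, Bmi1, Lrig1 and Mex3a, and Ly6a is spread from 2.74 to 21.6 CPM within vehicle.

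*Hopx* encodes a small homeodomain protein that does not itself bind DNA and is the classical mark of +4 cells. Its level was 215, 207 and 186 CPM in Ctrl 1, 2 and 3, and 135, 162 and 142 CPM in stress 1+2, stress 3 and stress 4+5+6. All stress libraries lay below all Ctrl libraries. The mean was 203 ± 15.0 CPM in Ctrl and 146 ± 14.0 CPM in stress (SD, n = 3), a decrease of 27.9% (log2 fold change -0.47, SE 0.0972, adjusted p = 0.0407, edgeR's quasi-likelihood test with Benjamini-Hochberg adjustment over 13722 genes). The call lay close to the threshold. It was lost without Ctrl 1, 2 or 3 (adjusted p = 0.206, 0.168 and 0.0860), without stress 1+2 (0.175) and without stress 4+5+6 (0.126), while the change stayed between -0.55 and -0.42. Those fits called 56 to 114 of all genes, against 260 with no library left out. The stress library with the smallest sum of enterocyte markers, stress 3, had the highest *Hopx* of the 3. Stress 4+5+6 had a larger sum than stress 1+2 (1685 against 830 CPM) and also a higher *Hopx* (142 against 135 CPM). The part of these other cells in the result was not tested.

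With injection, *Hopx* was at 173, 196 and 197 CPM in vehicle 3, 5 and 6, and at 143, 133 and 169 CPM in CORT 2, 4 and 5. CORT was again below vehicle in every library, though vehicle 3 and CORT 5 were close. The means were 188 ± 13.5 CPM and 148 ± 18.8 CPM (SD, n = 3), with a log2 fold change of -0.35 (95% interval -0.58 to -0.12) that did not pass the test (adjusted p = 0.0738, edgeR). It passed without CORT 5 (-0.45, adjusted p = 0.0397) and with DESeq2 (-0.35, adjusted p = 0.0114). The difference between the stress and CORT effects on *Hopx* was -0.13 (95% interval -0.44 to 0.18, adjusted p = 0.780). Ordered by level, Ctrl and vehicle overlapped, vehicle and CORT did not, and CORT and stress overlapped.

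*Hopx* lies on chr5:77086988-77115121 (mm10, minus strand), and 412 of its 1516 exonic bases overlap *Hopxos*, a gene on the opposite strand. The sources do not say whether strand entered the counting, so their reads cannot be told apart there. *Hopxos* was listed at 1.24 to 5.06 CPM, a small fraction of the *Hopx* level, with log2 fold changes of -1.01 under stress (adjusted p = 0.270, edgeR) and -0.02 under CORT (adjusted p = 0.977).

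*Lrig1* (chr6:94604529-94700158, minus strand) encodes a transmembrane protein that restrains ErbB receptors and marks crypt cells that include the slowly dividing ones. It was measured at 371, 329.9 and 376 CPM in Ctrl 1, 2 and 3 and at 339.5, 323 and 302 CPM in the stress libraries in the order above. The ranges overlapped. The log2 fold change under stress was -0.16 (95% interval -0.35 to 0.04, adjusted p = 0.447, edgeR). In vehicle 3, 5 and 6 it was at 422, 392 and 374 CPM, and in CORT 2, 4 and 5 at 258, 258 and 309.7 CPM. Every CORT library was below every vehicle library. *Lrig1* fell from 396 ± 24.3 to 275 ± 29.8 CPM (SD, n = 3), a decrease of 30.7% (log2 fold change -0.53, SE 0.0963, adjusted p = 0.0110, edgeR over 14656 genes). Without CORT 4 the change was -0.48 and no longer passed (adjusted p = 0.0615). The neighbour *Slc25a26* on the opposite strand shares 144 of the 5585 exonic bases of *Lrig1* and was at 12.4 to 20.3 CPM, with a log2 fold change of 0.41 under CORT (adjusted p = 0.185), the direction opposite to that of *Lrig1*.

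*Mex3a* (chr3:88532395-88541396, plus strand) encodes an RNA-binding protein with KH domains and showed the largest change of any member that was called under CORT. Its level was 32.6, 36.0 and 30.1 CPM in vehicle 3, 5 and 6 and 13.2, 18.5 and 17.9 CPM in CORT 2, 4 and 5. The CORT libraries lay below those of all 3 other groups. *Mex3a* fell from 32.9 ± 2.96 to 16.5 ± 2.92 CPM (SD, n = 3), or 2.00-fold (log2 fold change -0.998, SE 0.153, 95% interval -1.34 to -0.65, adjusted p = 0.00518, edgeR). This call held in each of 16 alternatives, with log2 fold changes from -1.09 to -0.84. One of them, chosen after the data had been seen, thinned the vehicle and CORT libraries to an equal total and gave -0.99 (adjusted p = 0.00517).

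In the stress experiment, *Mex3a* was at 27.9, 26.1 and 34.8 CPM in Ctrl 1, 2 and 3 and at 26.1, 29.5 and 26.8 CPM in stress 1+2, stress 3 and stress 4+5+6. The groups overlapped, and the log2 fold change was -0.11 (95% interval -0.43 to 0.21, adjusted p = 0.794, edgeR). The stress effect minus the CORT effect was 0.89 (95% interval 0.43 to 1.34) in edgeR's fit of all 12 libraries. It missed the threshold (adjusted p = 0.0919 over 14415 genes) and passed with DESeq2 (0.90, adjusted p = 0.00781). No member passed this test of the difference in the edgeR fit, in which 0.388% of all genes did. Of the 7 tested members, 3 had an unadjusted p below 0.05. Such values were common in that fit, where that of *Clu* (0.046, edgeR) stood at rank 1698 of 14415 genes.

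*Bmi1* (chr2:18677018-18686629, plus strand) encodes a subunit of Polycomb repressive complex 1 and varied least of the members, 1.40-fold from its lowest to its highest library in FPKM. It was at 40.1, 38.9 and 34.3 CPM in Ctrl 1, 2 and 3 and 37.1, 37.2 and 32.9 CPM in stress 1+2, stress 3 and stress 4+5+6. These ranges overlapped (log2 fold change -0.08, 95% interval -0.34 to 0.18, adjusted p = 0.817, edgeR). It was at 43.9, 45.4 and 42.9 CPM in vehicle 3, 5 and 6 and 39.9, 41.1 and 42.7 CPM in CORT 2, 4 and 5. CORT lay just below vehicle without overlap, by -0.10 on the log2 scale (95% interval -0.28 to 0.08, adjusted p = 0.515), and vehicle lay above Ctrl without overlap, by 0.23 (95% interval -0.01 to 0.46, adjusted p = 0.466). None of these differences passed the test.

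*Tert* (chr13:73627001-73649041, plus strand) encodes the catalytic subunit of telomerase. It was at 9.24, 7.36 and 9.51 CPM in Ctrl 1, 2 and 3, 10.3, 9.89 and 8.72 CPM in stress 1+2, stress 3 and stress 4+5+6, 9.09, 14.5 and 7.97 CPM in vehicle 3, 5 and 6, and 10.5, 14.0 and 12.5 CPM in CORT 2, 4 and 5. Every pair of neighbouring groups overlapped. The log2 fold change was 0.15 under stress (95% interval -0.32 to 0.61, adjusted p = 0.812, edgeR) and 0.22 under CORT (-0.31 to 0.76, adjusted p = 0.630). These intervals are wide enough to hold changes of the size measured for *Hopx* under stress in the upward direction.

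*Clu* (chr14:65968483-65981548, plus strand) encodes clusterin, a secreted chaperone and the defining mark of revival stem cells. It was scarce, with 34 to 94 counts in the Ctrl and stress libraries. In Ctrl 1, 2 and 3 it was at 5.15, 4.01 and 5.73 CPM, and in stress 1+2, stress 3 and stress 4+5+6 at 2.11, 2.24 and 3.35 CPM. All stress libraries were below all Ctrl libraries. The means were 4.96 ± 0.877 and 2.57 ± 0.678 CPM (SD, n = 3), and the log2 fold change of -0.95 (SE 0.342, 95% interval -1.71 to -0.18) did not pass the test over all genes (adjusted p = 0.222, edgeR). In vehicle 3, 5 and 6 *Clu* was at 2.73, 4.48 and 3.86 CPM, and in CORT 2, 4 and 5 at 2.41, 3.84 and 6.06 CPM. These groups overlapped (log2 fold change 0.14, 95% interval -0.67 to 0.95, adjusted p = 0.868), and the sign turned without vehicle 3 (-0.03) and without CORT 5 (-0.24). A rise of *Clu* under either treatment was not detected in the sorted cells. Cells outside the gate of bright EGFP and CD24- were not measured.

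*Anxa1* (chr19:20373428-20390944, minus strand) encodes an annexin, a calcium-dependent phospholipid-binding protein. It had 4 counts in each of Ctrl 2 and Ctrl 3, the yield of 1 read pair, 15 counts in CORT 4, and 0 in the other 9 libraries, which allows up to 0.173 to 0.753 CPM there. It was removed by the filter on low counts in every comparison and was not detectable at this depth in the stress and vehicle libraries.

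*Ly6a* (chr15:74994877-74998031, minus strand) encodes Sca-1, a surface protein anchored by a lipid. It belongs to a cluster of similar *Ly6* genes, between which reads may be split, and how such reads were counted is not given in the sources used here. It was at 0.994, 0.837 and 0.488 CPM in Ctrl 1, 2 and 3, and 1.06, 0.546 and 0.231 CPM in stress 1+2, stress 3 and stress 4+5+6. That is 4 to 17 counts per library, at or near the limit that 12 counts set. The log2 fold change under stress was -0.34 (95% interval -1.88 to 1.19, adjusted p = 0.874, edgeR), an interval that leaves a change of either sign undetected.

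After injection *Ly6a* was at 21.6, 2.74 and 9.20 CPM in vehicle 3, 5 and 6, and at 9.64, 1.81 and 0.826 CPM in CORT 2, 4 and 5. All vehicle libraries were above all Ctrl libraries, and the 2 injected groups overlapped widely. Between CORT and vehicle the log2 fold change was -1.42 (95% interval -3.37 to 0.53, adjusted p = 0.368, edgeR). It was -3.03 without CORT 2 (adjusted p = 0.0631) and -0.54 without vehicle 3 (adjusted p = 0.782). Vehicle exceeded Ctrl by 3.84 (SE 0.660, 95% interval 2.39 to 5.29, adjusted p = 0.0223, edgeR over 13642 genes), at 11.2 ± 9.61 against 0.773 ± 0.259 CPM (SD, n = 3). With 17, 14 and 8 counts in Ctrl 1, 2 and 3, *Ly6a* passed the filter on low counts only with the help of vehicle libraries, where it was high. The call is to be read with that limit. With no filter the call held (adjusted p = 0.0287, edgeR). This call was lost without Ctrl 1, 2 or 3 (adjusted p = 0.142, 0.108 and 0.108) and without vehicle 6 (0.0708), with log2 fold changes of 2.95 to 4.30. Vehicle mice differed from Ctrl mice by the injection, by the food and water kept from Ctrl mice if the protocol above was followed, and possibly by handling, which cannot be told apart.

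*Ly6a* moved with genes that respond to interferon. A list of 9 such genes (*Irf7*, *Isg15*, *Ifit1*, *Ifit3*, *Oasl2*, *Usp18*, *Rtp4*, *Ifi44* and *Ly6e*) was written after these values had been seen. Their summed level was 1802 CPM in vehicle 3, 1137 CPM in vehicle 6 and 1502 CPM in CORT 2, and 254 to 417 CPM in the other 9 libraries. These were also the 3 libraries with the highest *Ly6a*, and for each of the 9 genes they were the 3 highest libraries. *Usp18* was the only gene of the list called between vehicle and Ctrl (log2 fold change 3.29, adjusted p = 0.0471, edgeR), and none was called between CORT and vehicle. In vehicle 5, *Ly6a* was above every Ctrl library while the sum of the interferon genes, 394 CPM, was below that of Ctrl 2. The part of an interferon response in the *Ly6a* levels was not tested.

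**Figure D2:**
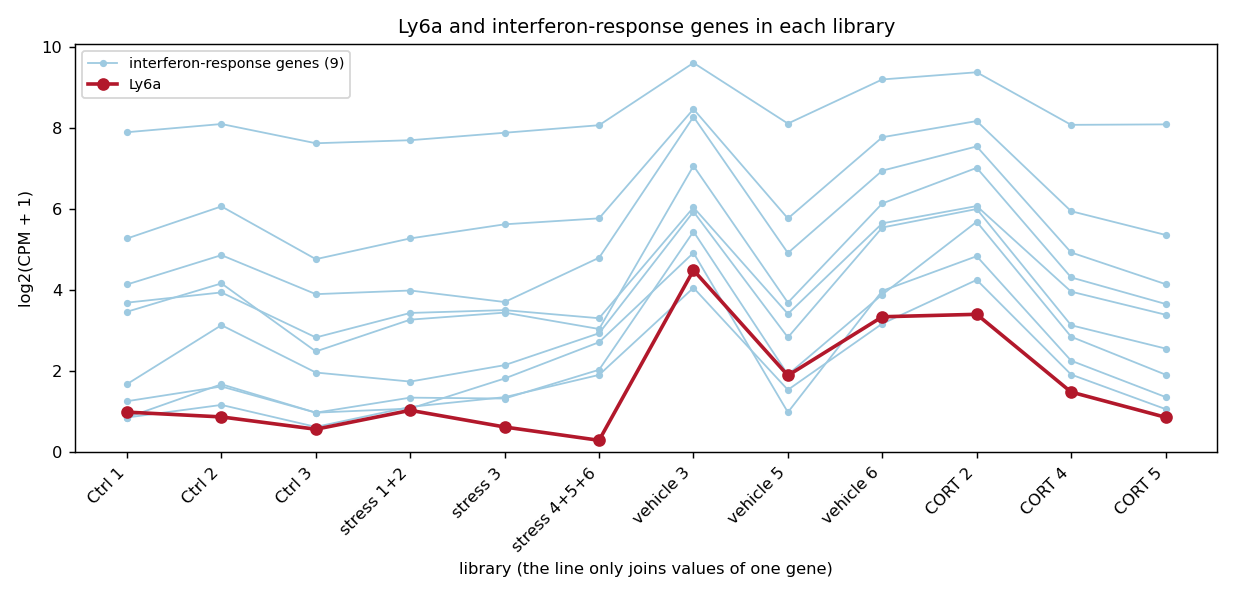
Level of Ly6a (thick line) and of 9 interferon-response genes (thin lines) in each of the 12 libraries (horizontal axis), as log2(CPM + 1). Ly6a and the 9 other genes are highest in vehicle 3, vehicle 6 and CORT 2, and Ly6a is at or below 1.06 CPM in all Ctrl and stress libraries.

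Over the members together, 1 of 7 tested was called under stress (*Hopx*, lower), where 1.89% of all genes were called, and 2 of 7 did not overlap between the groups (*Hopx* and *Clu*, lower), where 20.4% of all genes did not. Under CORT, 2 of 7 were called (*Lrig1* and *Mex3a*, lower), against 8.13% of all genes, and 4 of 7 did not overlap (*Hopx*, *Bmi1*, *Lrig1* and *Mex3a*, lower), against 28.7%. Between vehicle and Ctrl, 1 of 7 was called (*Ly6a*, higher), against 0.799%, and 2 of 7 did not overlap (*Ly6a* and *Bmi1*, higher), against 16.3%. The median log2 fold change of the members was -0.16 under stress and -0.35 under CORT, with medians of -0.0028 and 0.014 over all genes. No member was called higher in either treatment. Counts over 7 genes of unequal depth describe these genes and are no test of the set. The members were also chosen with earlier results of these data known, so an excess over the share of all genes is not unbiased.

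**Figure D3:**
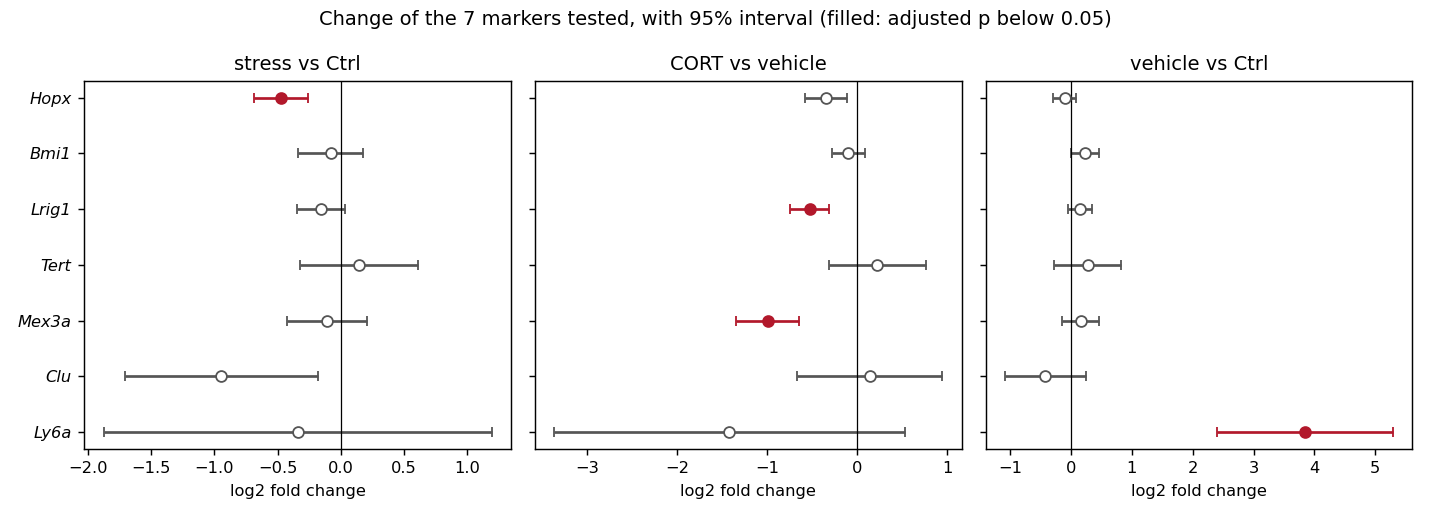
log2 fold change (horizontal axis, a scale of its own per panel) of the 7 tested markers in stress vs. Ctrl, CORT vs. vehicle and vehicle vs. Ctrl, with the 95% interval from edgeR and filled points where the adjusted p was below 0.05. Filled points are Hopx under stress (-0.47), Lrig1 (-0.53) and Mex3a (-0.998) under CORT, and Ly6a between vehicle and Ctrl (3.84), and the widest intervals belong to Clu and Ly6a. Between vehicle and Ctrl, Ly6a passed the filter on low counts only with the help of vehicle libraries.

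Of 20 genes of the revival and fetal-like programme other than the members, 12 were tested under stress and 0 were called by edgeR or DESeq2, with 1 at an unadjusted p below 0.05. EdgeR called 1.89% of all genes there and DESeq2 616 of 12653, so 0 of 12 says little about the list. The largest positive log2 fold change of the 12 was that of *Il33*, an alarmin cytokine, named after its values were seen, with 0, 0 and 7 counts in Ctrl 1, 2 and 3 and 22, 13 and 46 counts in stress 1+2, stress 3 and stress 4+5+6. It passed the filter on low counts through the stress libraries only, so its test is not given. Under CORT 11 were tested, 10 were below 0 with a list median of -0.45, and 4 were called lower, against the 8.13% of all genes. *Cyr61*, a secreted matrix protein and a target of YAP, was at 7.73, 6.05 and 6.90 CPM in vehicle 3, 5 and 6 and 2.02, 3.78 and 2.31 CPM in CORT 2, 4 and 5. It fell by 1.35 on the log2 scale (adjusted p = 0.0199, edgeR). Vehicle was itself below Ctrl (13.9 to 23.2 CPM) by 1.33 (adjusted p = 0.0218). *Cldn4*, a tight junction protein, fell from 11.3 to 5.28 CPM (log2 fold change -1.10, adjusted p = 0.0238, edgeR), and *Krt7*, a keratin of simple epithelia, from 178 to 127 CPM (-0.49, adjusted p = 0.0142). The fourth was *Anxa2* (-0.36, adjusted p = 0.0377), an annexin, named here because of its call. Vehicle lay above Ctrl for *Krt7* (0.36, adjusted p = 0.113, edgeR, called by DESeq2) and *Anxa2* (0.26, adjusted p = 0.228), and near it for *Cldn4* (0.02). *Krt7* was at 133 to 142 CPM in Ctrl and 120 to 136 CPM in CORT, and *Anxa2* at 52.7 to 55.5 and 44.6 to 54.0 CPM. No gene of this list was called higher in either treatment in the sorted cells, and cells outside the gate were not measured.

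In the YAP and TEAD pathway, 0 of 17 tested genes were called under stress by edgeR (4 at an unadjusted p below 0.05) and 1 by DESeq2. EdgeR called 1.89% of all genes there, and DESeq2 called 616 of 12653. Of 18 tested under CORT, edgeR called 1, against 8.13% of all genes, and DESeq2 called 3, against 1868 of 13516. The gene called by edgeR was *Amotl2*, a junction protein that binds YAP, which fell from 11.8 to 6.10 CPM (log2 fold change -0.94, adjusted p = 0.0327, edgeR). DESeq2 also called *Lats2* and *Ajuba*. Of the other subunits of Polycomb repressive complex 1, the complex of *Bmi1*, 0 of 17 were called under stress by edgeR or DESeq2 (2 at an unadjusted p below 0.05) and 1 of 17 under CORT by either tool, *Phc2* (-0.43, adjusted p = 0.0230). Of 13 telomerase and telomere proteins, 0 were called in either treatment by edgeR or DESeq2, with 1 at an unadjusted p below 0.05 under stress and 3 under CORT. Of 5 tested genes of other slowly dividing or injury-resistant crypt cells, *Krt19* was the 1 called under CORT by either tool and fell from 1088 to 803 CPM (-0.44, adjusted p = 0.0227), while 0 were called under stress by edgeR or DESeq2 (2 at an unadjusted p below 0.05).

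Among 10 tested relatives of the members, *Mex3d* and *Anxa7* fell under CORT (2 of 10, against 8.13% of all genes). DESeq2, which called 1868 of 13516 genes there, added *Anxa11*. Under stress, where edgeR called 1.89% of all genes, 0 were called by edgeR or DESeq2 (3 at an unadjusted p below 0.05). *Mex3d*, a paralog of *Mex3a*, was at 29.9, 32.5 and 33.6 CPM in vehicle 3, 5 and 6 and 17.0, 19.1 and 23.9 CPM in CORT 2, 4 and 5 (log2 fold change -0.68, SE 0.142, adjusted p = 0.0198, edgeR). *Anxa7* was at 89.8 to 102 CPM in vehicle and 62.8 to 63.5 CPM in CORT (-0.59, adjusted p = 0.00199). Both groups of libraries were separate for either gene.

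**Figure D4:**
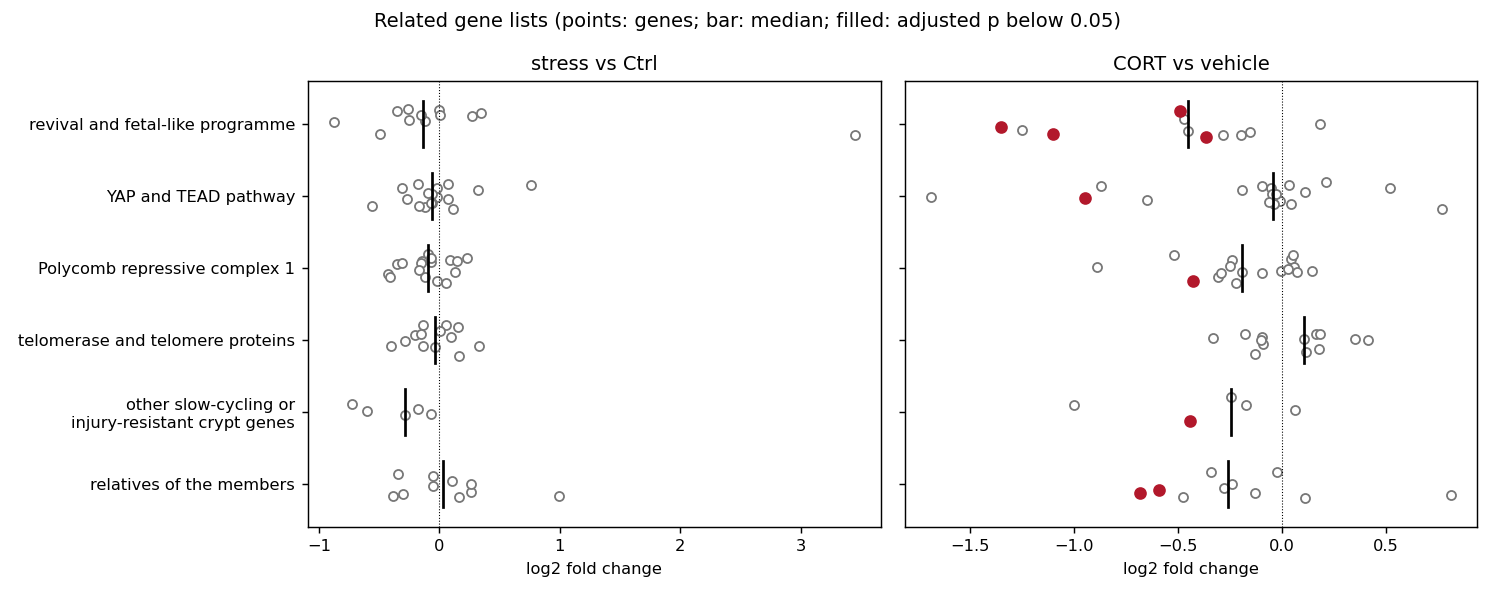
log2 fold change (horizontal axis) of each tested gene of 6 related lists in stress vs. Ctrl (left) and CORT vs. vehicle (right), with the median of a list as a bar and filled points where edgeR's adjusted p was below 0.05. Filled points appear in the CORT panel and none in the stress panel, and all lie below 0, with 4 in the revival and fetal-like programme. Of all genes, 1.89% were called in stress vs. Ctrl and 8.13% in CORT vs. vehicle.

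The genes whose pattern over the 12 libraries was most like that of each called member were taken from 9557 genes with a mean of at least 10 CPM, by Pearson's r of log2(CPM + 1). The 12 values share the groups and their depths, so r describes a shared pattern. The genes were picked for likeness to a called member in these same libraries. A test of them there would follow from that choice, and none is given. For *Hopx* they were *Efna4*, an ephrin (0.941), *Ywhaz*, a 14-3-3 protein (0.939), and *Cdx2*, the intestinal transcription factor (0.934). The log2 fold change of *Cdx2* was -0.76 under stress and -0.90 under CORT. For *Lrig1* they were *Trim8* (0.952), the R-spondin receptor *Lgr4* (0.943) and the beta-catenin cofactor *Bcl9* (0.937). The log2 fold change of *Lgr4* was -0.32 under stress and -1.03 under CORT. For *Mex3a* they were *Nfe2l2*, which encodes the oxidative stress factor NRF2 (0.931), *Lemd2* (0.926) and *Mtss1* (0.925). For *Ly6a* they were *Shisa5* (0.974), *Hap1* (0.973) and *Cmtr1* (0.961).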

How the data were processed

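RNA-seq of sorted ISCs was analysed in 12 libraries, each assigned to its group by its label. The submitters' processing notes name HISAT2 2.2.1 and StringTie 2.2.1, while the paper's methods name featureCounts, and mm10 was the build. The authors deposited estimated counts per gene (75 covered bases per count), FPKM, TPM (not used here) and mean coverage per base, a signal that served only to find what a count is. Counts were rounded to whole numbers. Genes with few counts were removed with filterByExpr, and the 6 libraries of each comparison were fitted by themselves in edgeR 4.0.16 (TMM, quasi-likelihood F-test, Benjamini-Hochberg adjustment over all genes tested, R 4.3.3). A gene was called at an adjusted p below 0.05. The interaction was fitted on 12 libraries. Scripts were tested on simulated data. DESeq2 1.42.0 and limma 3.58.1 on log2(FPKM + 1) were alternatives. Of symbols that occur more than once (126), the gene with the highest mean was used. Named were all members, the 3 genes most like each called member and at most 3 called genes per related list and comparison. *Anxa2*, *Il33*, *Lats2*, *Ajuba*, *Anxa11* and the interferon genes are outside this rule and were chosen after their values were seen. The members and lists were chosen with earlier results of these data known. Exons were taken from GENCODE of the same build. Some single genes are not reported here.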

Additional observations from a re-analysis of the deposited data

How the results depend on the processing

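Of 457 values of single members under alternatives, 421 kept their direction and their side of the threshold, 18 lost a call, 4 gained one and 14 changed sign. The lost calls were those of *Hopx* under stress (9 of 15 alternatives), *Ly6a* between vehicle and Ctrl (8 of 14) and *Lrig1* under CORT (1 of 16). Apart from leaving out libraries, *Hopx* under stress lost its call with no filter on low counts (adjusted p = 0.137) and with limma on FPKM (0.0531 to 0.147), and *Ly6a* with limma (0.0872 to 0.382) and in the fit of all 12 libraries (0.0982). Calls were gained by *Hopx* under CORT with DESeq2, without CORT 5 and with libraries thinned to the smallest total (-0.37, adjusted p = 0.0464, an alternative chosen after the data had been seen), and by *Mex3a* in the interaction with DESeq2. The causes were not tested.

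The sign changed only for values that passed no test. Not all were near 0 in the main fit, where *Ly6a* under stress was at -0.34 and *Tert* between vehicle and Ctrl at 0.27. When 1 library was left out, *Mex3a* under stress ranged from -0.187 to 0.0263 (the positive value without Ctrl 3), and *Ly6a* under stress from -0.985 to 0.0528 (positive without stress 4+5+6). *Clu* under CORT ranged from -0.245 to 0.414 (negative without vehicle 3 and without CORT 5), and *Tert* between vehicle and Ctrl from -0.0275 to 0.449 (negative without vehicle 5). In the interaction, *Bmi1* ranged from -0.0491 to 0.0731 (0.0607 without Ctrl 1, and negative without Ctrl 3, stress 3, vehicle 5, CORT 2 or stress 1+2, the last at -0.0111) and was at -0.00325 with no filter. *Tert* ranged from -0.386 to 0.0866 there (positive without vehicle 3, vehicle 6 or CORT 4).

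Counts of genes called varied more. Under stress, 260 genes were called, against 616 with DESeq2, 46 with no filter, 89 and 90 with limma on log2(FPKM + 1) and log2(FPKM + 0.1), 27 with limma and no filter, 510 in the fit of all 12 libraries, and 56 to 849 when 1 library was left out (88 without stress 1+2 and 114 without stress 4+5+6). The members called there were 0 with no filter and in each limma fit, and 0 to 1 with a library left out. Under CORT, 1192 genes were called, against 1868 with DESeq2, 561 with limma and no filter, and 503 to 1003 with a library left out, with 1 to 3 members called. Between vehicle and Ctrl, 109 genes were called, against 329 with DESeq2, 35 in either limma fit, 0 with limma and no filter, and 20 to 169 with a library left out. In the interaction, 56 genes were called, against 389 with DESeq2, 27, 22 and 17 in the limma fits, and 12 to 241 with a library left out. The log2 ratio of the *Bmi1* group means of CORT and vehicle was -0.18 in FPKM, against -0.10 in CPM. Another scaling (DESeq2's size factors) changed the direction of no call of a member.

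No paired analysis was possible because the groups compared share fewer than 2 replicate numbers. Depth limits *Clu*, *Ly6a* and *Anxa1* most. Groups of 3 libraries and unknown sex per library limit every comparison, as would pooling of mice in the stress libraries with joined numbers.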
